A study of Rattus norvegicus with 9 samples.

Results

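Of 12786 rat genes with a deposited normalised value, 91 met a rule for a dip in cultured cardiac fibroblasts of newborn rats. Every library of these cultures lay below every library of the cultures from younger and older animals. A gene was taken when its lowest value among the 3 fetal and 3 adult libraries was at least 1.4 times its highest value among the 3 neonatal libraries, and its mean over the fetal and adult libraries was at least 50. The genes were thus chosen by their normalised values in neonatal against fetal and adult libraries, so the neonatal dip is described below without a test. The rule sets no order between adult and fetal cells, and that comparison is tested for the 77 genes whose mean was at least 50 in both ages. Of the others, 9 reached the minimum mean through the adult libraries alone and 5 through the fetal libraries alone, so their adult versus fetal differences are given as descriptions. The genes include F3 (tissue factor), the prostanoid enzymes Ptgs1 and Ptgis, the cytokines Il33, Lif and Ccl20, the adhesion molecule Vcam1, the lactate carrier Slc16a3 and the restriction factor Fam111a.

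All animals were Sprague Dawley rats with no genetic change named in the labels, and the 3 ages were embryonic day 18 (fetal), postnatal day 1 (neonatal) and 7 weeks (adult), with 3 libraries each. The cells were primary heart isolates grown until they covered the flask, in DMEM with fetal bovine serum, penicillin and streptomycin, and ascorbic acid, and total RNA was sequenced in bulk. The labels name no cell sorting, and they do not say whether the libraries of an age came from separate animals or flasks, so p-values measure the spread between libraries, which may be technical. In bulk RNA, fewer cells of a type and less RNA per cell cannot be told apart.

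Cardiac fibroblasts make and remodel the extracellular matrix of the heart, and they signal to neighbouring muscle, vessel and immune cells through prostanoids, cytokines and growth factors. In the days around birth the heart switches from a low-oxygen to a high-oxygen environment, its muscle cells leave the cell cycle and its fibroblasts deposit matrix quickly. On plastic and in serum, fibroblasts of any age are also driven towards wound-type activation, in which coagulation, inflammatory and early response genes can be induced.

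The dip was the rarest of the 6 patterns that the same kind of rule can pick out. The 91 genes were 0.913% of the 9964 genes with a mean of at least 50 in the fetal and adult libraries. The mirrored rule, a peak in the neonatal libraries, was met by 136 genes, or 1.43% of those eligible for it. A single-age low was met by 637 genes in the fetal and 1320 genes in the adult libraries, and a single-age high by 477 and 1520 genes. Among the 91, the ratio of the lowest fetal or adult value to the highest neonatal value had a median of 1.78. It reached 2 for 35 genes, 3 for 13 genes and 5 for 3 genes. By means, fetal levels were a median of 3.01 times and adult levels a median of 4.91 times the neonatal level. Xdh and Tmem176a lay just inside the threshold, with ratios of 1.403 and 1.402. Prkch and Jade2 lay just outside it at 1.397 and 1.395, with lowest fetal or adult values of 40.3 and 111 against highest neonatal values of 28.9 and 79.6. The matrix protease gene Mmp3 was left out: its highest neonatal and its lowest fetal and adult values were all 0, and nearly all of its reads (668 counts) were in fetal replicate 3.

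**Figure D1:**
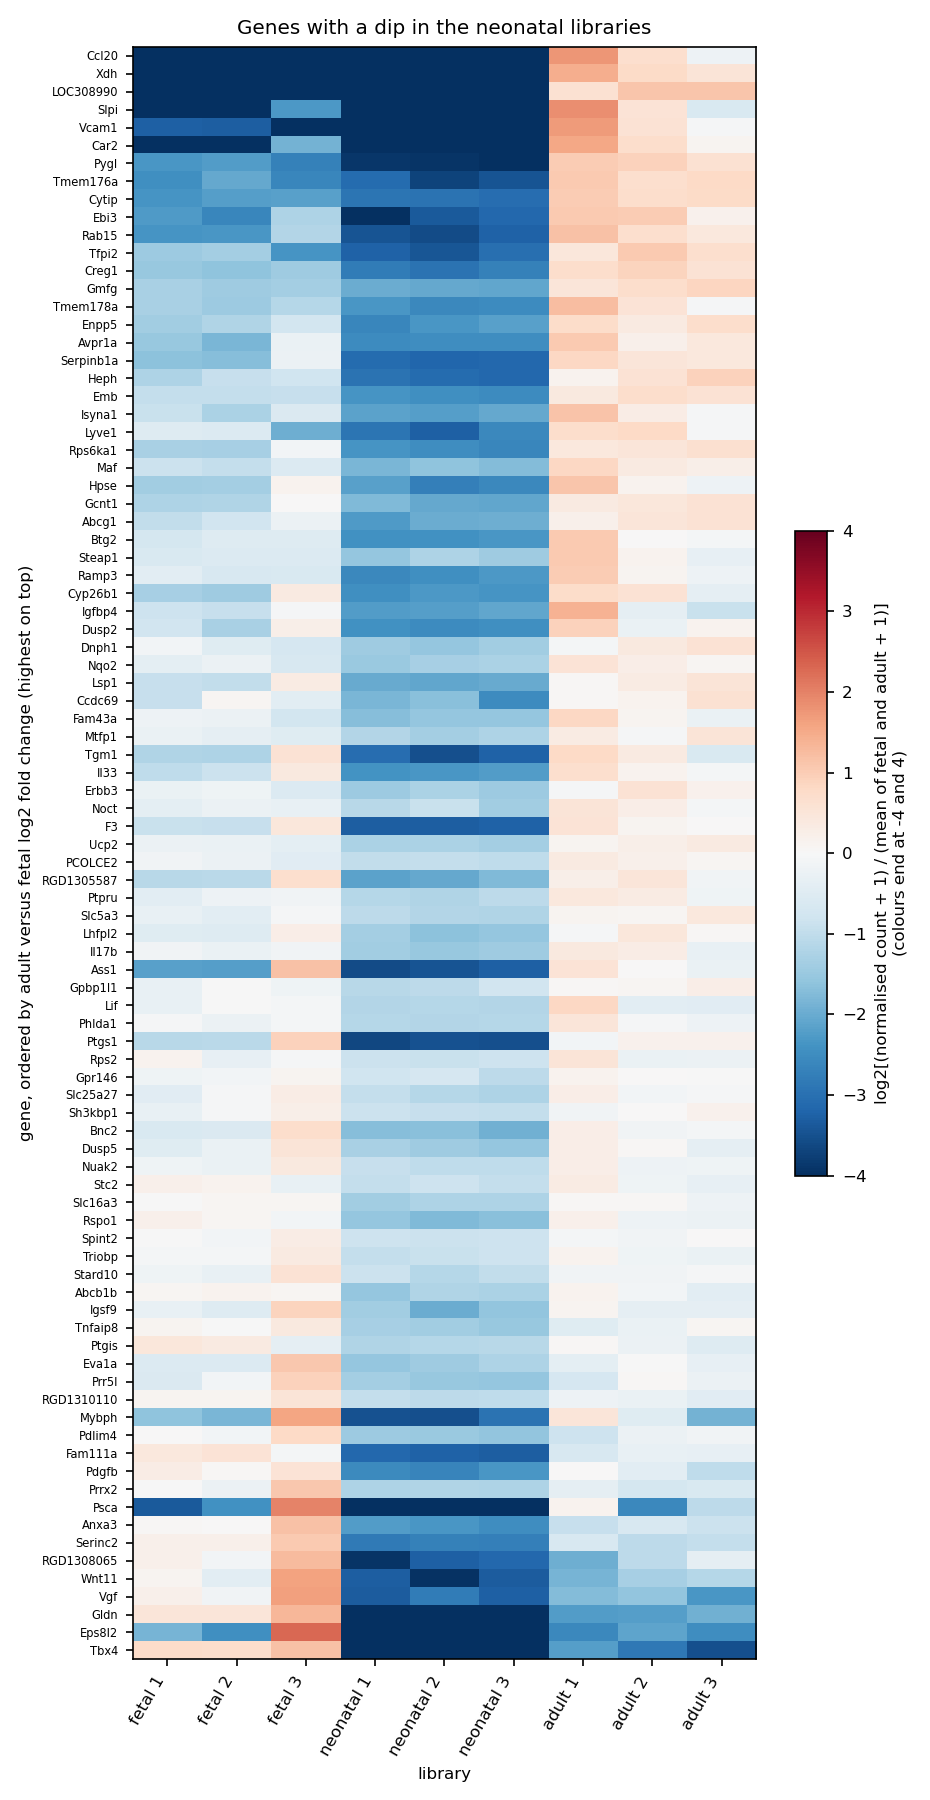
Heat map of 90 of the 91 genes (rows, ordered by the adult versus fetal log2 fold change, highest in adult on top) over the 9 libraries (columns). Colour is the log2 of each normalised count plus 1, relative to the gene's mean over the fetal and adult libraries plus 1, with colours ending at -4 and 4. The 3 neonatal columns are blue in every row because the rule chose the genes so, while the fetal columns range from dark blue to red between the top and the bottom of the map.

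Single libraries stood apart, and the cultures held RNA of other cell types. Fetal replicate 3 had a summed level of 12 epithelial and lung markers of 454 counts per 1000000 (CPM, scaled by TMM), against 51.6 and 51.5 in the other fetal libraries, and at most 10.2 in any neonatal and 3.37 in any adult library. In that library 10 of these 12 markers and 13 of 14 macrophage markers were at least 1.4 times both other fetal libraries. The lung epithelial factor Nkx2-1 had 185 counts there against 2 and 3 in the other fetal libraries, while the surfactant gene Sftpb had 0 counts in all 9 libraries. The macrophage markers summed to 4358 to 6083 CPM in the adult libraries, against 15.4 to 73.6 in fetal and 169 to 186 in neonatal libraries, and 14 of 14 were higher in adult cells than in fetal ones by edgeR's quasi-likelihood test. Cd163 was at 0 in all fetal and neonatal libraries. Cardiomyocyte markers summed to 313 to 325 CPM in the adult libraries, against 10530 to 14937 in fetal and 6666 to 7293 in neonatal libraries. Fibroblast markers summed to 42412 to 46827 CPM in the neonatal libraries, above the fetal (20305 to 38256) and adult ones (18885 to 25191), but Col1a1 made up most of that sum. Without Col1a1 the other 9 summed to 6800 to 6834 CPM in neonatal, 4975 to 5499 in fetal and 6992 to 7875 in adult libraries. Vim in turn made up most of that remaining sum, and Col1a2 had only 1 to 21 counts per library. The endothelial sum was lowest in the neonatal libraries, at 142 to 143 CPM against 194 to 233 in fetal and 173 to 199 in adult ones, through Flt1 alone: without it the other 10 markers summed to 18.0 to 27.5 CPM in fetal, 30.6 to 35.1 in neonatal and 100.2 to 120.3 in adult libraries. Markers of mural (vessel wall) cells were highest in the neonatal libraries, at 4313 to 4432 CPM. They summed to 1117 to 2502 CPM in fetal and 1549 to 1911 in adult libraries. Without Pdgfrb, the largest, the sums were 2312 to 2388 CPM in neonatal, 719 to 1515 in fetal and 279 to 591 in adult libraries. The mirrored rule, a neonatal peak, was met by 5 of the 9 mural markers. None of the 91 genes belongs to these marker lists except Erbb3, which is in the Schwann cell and neural list. The part of these other cells in the results below was not tested, except where values without fetal replicate 3 are given.

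**Figure D2:**
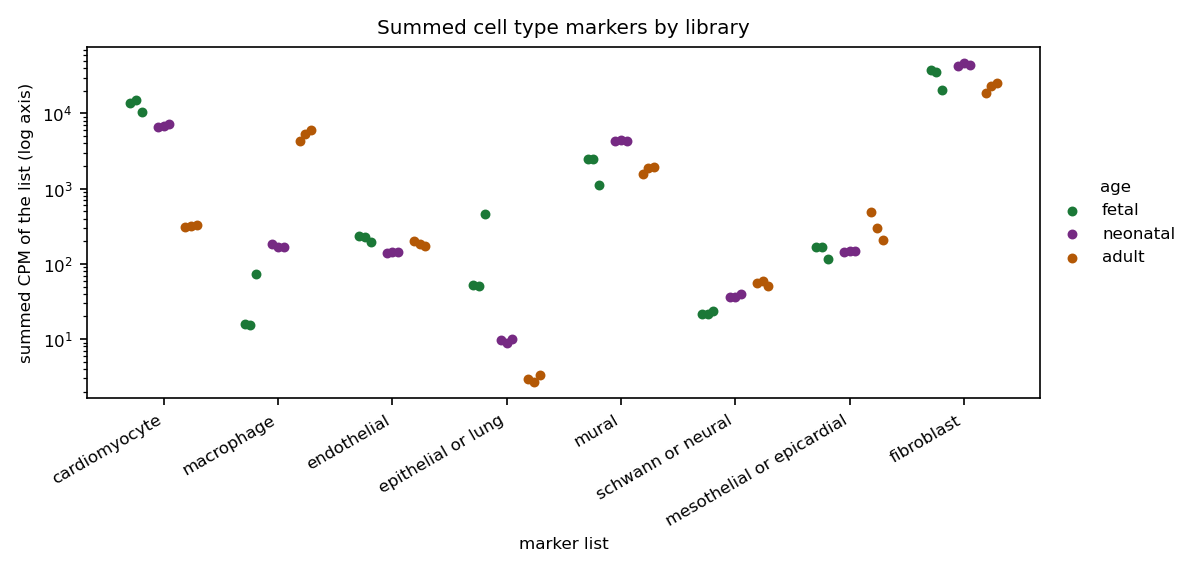
Summed level of each cell type marker list in each library, in counts per 1000000 on a log axis, with 1 point per library and 3 libraries per age. The macrophage sums separate the adult from the other libraries, the cardiomyocyte sums fall from fetal to neonatal to adult, and the third fetal point stands above the other fetal libraries in the epithelial or lung list.

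The deepest dip at a high level belonged to Fam111a, whose protein restricts viral replication and takes part in DNA replication. Its normalised counts, always given here in the order of replicates 1 to 3, were 5484, 5964 and 3897 in the fetal libraries, 468, 434 and 421 in the neonatal and 2655, 3380 and 3282 in the adult ones. Every fetal and adult library was thus several times above every neonatal one, with a ratio of lowest to highest of 5.68. The gene lies on chromosome 1 from 229003961 to 229019527 (rn6, plus strand). It was lower in adult cells than in fetal ones by 0.72 ± 0.15 on the log2 scale (± SE, adjusted p = 0.00203), and the adult and fetal libraries did not overlap.

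Promoter sequences are shown here for 5 of the genes because they stand for different shapes of the dip: Fam111a and Btg2 with high levels and deep dips, Vgf with its high in fetal cells, and Ccl20 and Tmem176a with their high in adult cells. Each is the 250 bases upstream of the start in the RefSeq table (GRCr8), 5′ to 3′ on the gene's strand, at chr1:219065389-219065638 (plus), chr13:48087691-48087940 (minus), chr12:25277021-25277270 (minus), chr9:91836909-91837158 (plus) and chr4:79105569-79105818 (plus). Capitals mark matches on either strand, which may overlap. The motifs searched were the TATA box of many regulated promoters (TATAAA), the CCAAT box bound by the NF-Y complex (CCAAT), the GC box bound by the Sp family (GGGCGG), and the cyclic AMP response element bound by the CREB family (TGACGTCA). Also searched were an AP-1 site (TGA and TCA around any 1 base), an NF-kB site (3 G, any 2 bases, 3 T and 2 C), the E-box bound by helix-loop-helix factors (CACGTG) and a STAT site (TTCNNNGAA).
Fam111a: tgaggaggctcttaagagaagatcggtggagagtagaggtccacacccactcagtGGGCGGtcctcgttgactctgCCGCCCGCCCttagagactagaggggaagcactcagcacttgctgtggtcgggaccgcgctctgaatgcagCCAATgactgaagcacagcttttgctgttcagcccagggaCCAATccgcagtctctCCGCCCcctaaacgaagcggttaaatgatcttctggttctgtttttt
Btg2: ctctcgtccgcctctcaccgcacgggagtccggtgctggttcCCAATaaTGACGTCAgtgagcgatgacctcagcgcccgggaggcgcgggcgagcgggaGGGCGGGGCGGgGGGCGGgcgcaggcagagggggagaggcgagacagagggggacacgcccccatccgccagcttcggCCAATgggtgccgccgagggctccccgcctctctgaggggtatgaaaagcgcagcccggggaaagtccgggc
Vgf: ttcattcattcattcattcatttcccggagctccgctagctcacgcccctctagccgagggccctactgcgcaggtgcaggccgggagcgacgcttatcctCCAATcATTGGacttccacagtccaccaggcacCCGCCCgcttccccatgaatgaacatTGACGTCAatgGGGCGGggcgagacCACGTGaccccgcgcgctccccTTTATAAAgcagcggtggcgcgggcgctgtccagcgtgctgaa
Ccl20: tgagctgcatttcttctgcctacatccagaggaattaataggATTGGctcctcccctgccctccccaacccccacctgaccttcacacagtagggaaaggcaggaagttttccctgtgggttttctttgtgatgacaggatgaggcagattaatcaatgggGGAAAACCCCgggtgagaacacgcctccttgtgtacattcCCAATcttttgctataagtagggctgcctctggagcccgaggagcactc
Tmem176a: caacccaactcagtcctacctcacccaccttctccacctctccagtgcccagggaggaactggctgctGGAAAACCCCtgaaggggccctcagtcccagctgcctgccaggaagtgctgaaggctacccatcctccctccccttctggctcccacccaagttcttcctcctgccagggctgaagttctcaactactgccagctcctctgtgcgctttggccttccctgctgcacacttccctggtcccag
Fam111a, Btg2 and Vgf held CCAAT and GC boxes, and Ccl20 held CCAAT boxes. Btg2 and Vgf held a full cyclic AMP response element, and Vgf also TATA box matches and an E-box. Ccl20 and Tmem176a held the same 10 letters matching the NF-kB pattern. A match is a description of these letters and does not show that a factor binds.

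Across the dip genes, 76 of the 91 had an entry in the promoter table, and their median GC content was 61.6%, against 60.8% for 8150 eligible genes with an entry and 54.8% for all 19005 protein-coding genes in it. The NF-kB pattern was in 4 of the 76 promoters (Ccl20, Dusp5, Pdgfb and Tmem176a), or 5.26%, against 1.46% of the eligible and 1.33% of all promoters. A TATA box was in 10 of 76 (13.2%), against 6.23% of the eligible and 12.3% of all. The full cyclic AMP response element was in 3 of 76 (Btg2, Ptpru and Vgf), or 3.95%, against 3.07% and 2.03%. CCAAT boxes were in 40.8% against 35.6% and 35.5%, and GC boxes in 56.6% against 60.7% and 40.3%. AP-1 sites were in 5.26% against 4.31% and 5.82%, E-boxes in 5.26% against 8.70% and 6.38%, and STAT sites in 3.95% against 5.67% and 7.22%. No test was made of these shares.

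The genes were sorted by role after their names were seen, so the groups carry no test. Counts of calls within a group are over its genes with both means at least 50, beside the 34.5% called higher and 34.6% called lower in adult cells among all 8981 tested genes with such means. The group of 10 prostanoid, coagulation and protease inhibitor genes held several of the deepest dips. F3 encodes tissue factor, the cell surface trigger of blood coagulation, and had the largest mean level per exon length of the 91. It lies on chromosome 2 from 225310686 to 225322281 (rn6, plus strand). Its normalised counts were 2931, 2854 and 7537 in the fetal, 554, 549 and 581 in the neonatal and 8057, 5935 and 5476 in the adult libraries. Per exon length this was 149 ± 89.7, 18.9 ± 0.609 and 217 ± 46.7 counts per kilobase per 1000000 counts (mean ± SD, n = 3 libraries per age). The neonatal libraries were close to each other and far below the rest, and fetal replicate 3 was as high as the adult libraries. The adult versus fetal log2 fold change of F3 was 0.55 ± 0.35 and did not pass the test (adjusted p = 0.19). Without fetal replicate 3 it was 1.16 ± 0.16 and passed it (adjusted p = 0.000258).

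Ptgs1 encodes the constitutive cyclooxygenase, which makes the precursor of all prostanoids, and Ptgis the synthase that turns this precursor into prostacyclin. Ptgs1 stood at 661, 678 and 2683 normalised counts in the fetal, 113, 125 and 124 in the neonatal and 1319, 1600 and 1586 in the adult libraries. For Ptgs1, fetal replicate 3 lay above all other libraries. The adult versus fetal log2 fold change was 0.16 ± 0.48 (adjusted p = 0.772) over all libraries and 1.16 ± 0.09 (adjusted p = 4.79e-07) without fetal replicate 3. Ptgis stood at 4829, 4513 and 2749 in the fetal, 1534, 1613 and 1638 in the neonatal and 3629, 2970 and 2483 in the adult libraries, so the replicate that was high for Ptgs1 was the lowest fetal one for Ptgis. Its adult versus fetal log2 fold change was -0.41 ± 0.21 (adjusted p = 0.0989). It passed the test with fetal replicate 3 left out (-0.63, adjusted p = 0.00299), and likewise with adult replicate 1 left out (-0.56, adjusted p = 0.0492). The inducible cyclooxygenase Ptgs2, which is not a dip gene, averaged 1017 normalised counts for fetal, 93.7 for neonatal and 232 for adult cells. It was lower in neonatal than in fetal cells by 3.42 on the log2 scale (adjusted p = 0.00367), but did not pass the test between adult and neonatal cells (log2 fold change 1.29, adjusted p = 0.104).

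Slpi, a secreted inhibitor of leukocyte proteases, was almost silent in the neonatal libraries. Its normalised counts were 3.64, 5.23 and 45.8 in the fetal, 0, 0.78 and 0 in the neonatal and 826, 331 and 147 in the adult libraries. The neonatal libraries together held 1 read against 1089 in the others, a ratio of 603 after scaling with a 95% exact interval of 108 to 23838 that covers counting error only. All adult libraries lay above all fetal ones, with a log2 fold change of 4.6 ± 0.90 that is given without a test, since Slpi reached the minimum mean through the adult libraries alone. Tgm1, a transglutaminase that crosslinks proteins in barrier epithelia, had 39.1, 38.1 and 135 in the fetal, 10.2, 7.02 and 8.68 in the neonatal and 157, 116 and 58.4 in the adult libraries. Its log2 fold change of 0.65 ± 0.52 between adult and fetal cells did not pass the test (adjusted p = 0.285). Without fetal replicate 3 the change was 1.51, given without a test because the mean of the other fetal libraries, 38.6, was under 50. The other 6 genes were the protease inhibitors Serpinb1a, Spint2 and Tfpi2, the heparanase Hpse, the procollagen processing enhancer PCOLCE2 and Ptgis, described above. Of 9 genes with both means at least 50, 3 were higher and 0 lower in adult cells than in fetal ones, and the higher share is near that of all genes.

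**Figure D3:**
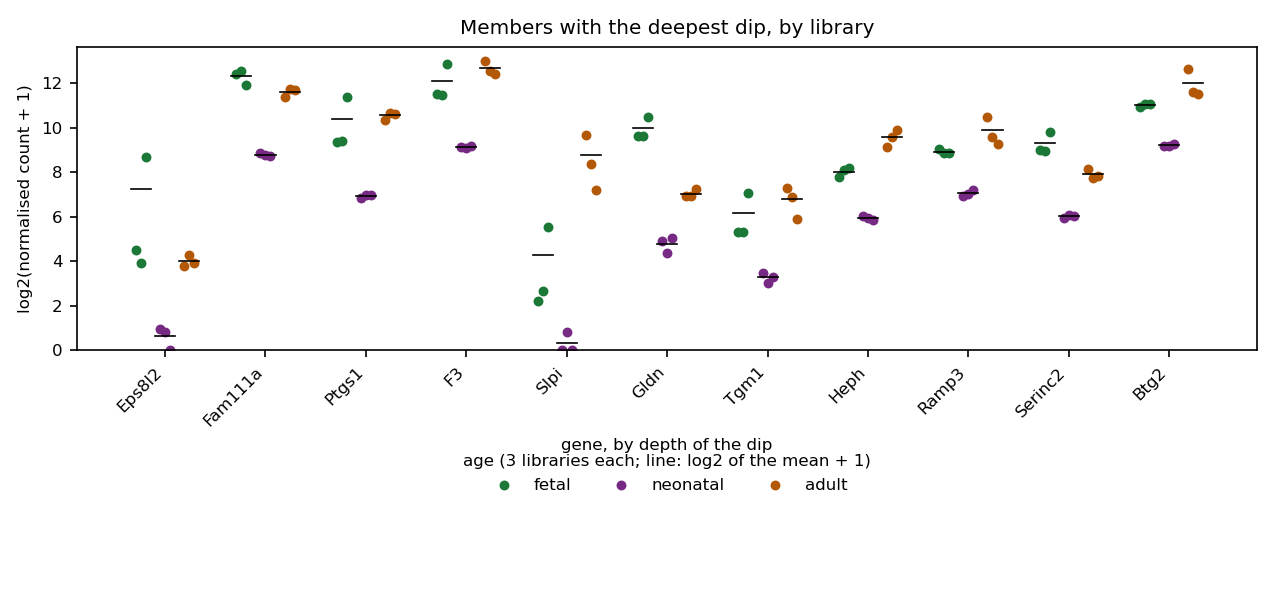
Of the 12 genes with the deepest dip, 11 are drawn, in order of depth, with 1 point per library on a log2 scale of the normalised count plus 1 and a line at the log2 of each age's mean plus 1. The neonatal points lie below all fetal and adult points of the same gene. Fetal replicate 3 is at least 1.4 times both other fetal libraries for Eps8l2, Ptgs1, F3, Slpi, Gldn, Tgm1 and Serinc2.

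The 11 cytokines, growth factors and other secreted factors differed widely in where they were highest. Ccl20, a chemokine that attracts lymphocytes and dendritic cells through its receptor Ccr6, had 8.19, 8.96 and 10.8 normalised counts in the fetal, 2.77, 3.12 and 1.08 in the neonatal and 679, 323 and 174 in the adult libraries. The fetal and neonatal values rested on few reads, and its adult versus fetal log2 fold change was 5.38 ± 0.54, with no test because the adult libraries alone brought it to the minimum mean. Vgf, a secreted neuropeptide precursor, had the opposite tilt. It stood at 107, 83.7 and 289 in the fetal, 8.32, 12.5 and 8.68 in the neonatal and 27.1, 30.5 and 17.8 in the adult libraries, an adult versus fetal log2 fold change of -2.66 ± 0.49. Wnt11, a ligand of non-canonical Wnt signalling that acts in heart development, had 67.3, 46.3 and 195 in the fetal, 5.55, 3.12 and 5.42 in the neonatal and 16.8, 24.4 and 27.9 in the adult libraries. The log2 fold change was -2.15 ± 0.54. Vgf and Wnt11 reached the minimum mean through the fetal libraries alone, so neither change is tested.

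Lif, a cytokine of the interleukin 6 family, had 416, 498 and 484 in the fetal, 223, 229 and 226 in the neonatal and 899, 377 and 373 in the adult libraries. Adult replicate 1 was the high library, and the other adult values lay below all fetal ones. The adult versus fetal log2 fold change of Lif was 0.24 ± 0.30 (adjusted p = 0.503) over all libraries. Without adult replicate 1 it turned to -0.31 and passed the test (adjusted p = 0.0230). Stc2, a secreted glycoprotein induced by cell stress, had 351, 333 and 244 in the fetal, 156, 170 and 155 in the neonatal and 381, 269 and 243 in the adult libraries, and its log2 fold change of -0.06 ± 0.19 between adult and fetal cells did not pass the test (adjusted p = 0.788). The other members of this group were Il33, an alarmin, Il17b, Ebi3, a subunit of interleukin 27 and 35, the growth factor Pdgfb, the Wnt enhancer Rspo1 and the insulin-like growth factor binder Igfbp4. Of the 7 with both means at least 50, 0 were higher and 1 was lower in adult cells than in fetal ones.

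Of the 12 receptor and adhesion genes, 9 had both means at least 50, and 6 of these were higher and 1 was lower in adult cells than in fetal ones (34.5% and 34.6% of all genes with both means at least 50). Vcam1, the endothelial and stromal ligand for leukocyte integrins, had 144, 142 and 85.3 normalised counts in the fetal, 32.4, 35.1 and 23.9 in the neonatal and 4550, 2096 and 1358 in the adult libraries. The gene lies on chromosome 2 from 219071193 to 219090931 (rn6, minus strand). All adult libraries were far above the rest, and the log2 fold change of 4.43 ± 0.46 between adult and fetal cells passed the test (adjusted p = 3.07e-05). Adult replicate 1 was the highest and fetal replicate 3 the lowest library of its age.

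Gldn encodes gliomedin, a protein of the nodes of Ranvier. It had 795, 787 and 1424 in the fetal, 28.7, 19.5 and 31.5 in the neonatal and 120, 122 and 149 in the adult libraries, so that its fetal level was 37.8 times and its adult level 4.91 times the neonatal one. It was lower in adult cells than in fetal ones by 2.94 ± 0.26 on the log2 scale (adjusted p = 8.1e-06). Ramp3, which turns the calcitonin receptor-like receptor into an adrenomedullin receptor, had 531, 458 and 465 in the fetal, 119, 130 and 144 in the neonatal and 1432, 770 and 617 in the adult libraries. Its log2 fold change of 0.95 ± 0.27 passed the test (adjusted p = 0.0109), but not without fetal replicate 3 (0.92, adjusted p = 0.0575). Adm, which encodes the peptide adrenomedullin and is not a dip gene, averaged 717 normalised counts for fetal, 1543 for neonatal and 11071 for adult cells. Erbb3, a neuregulin receptor, had 102, 109 and 83.5 in the fetal, 44.4, 50.7 and 44.5 in the neonatal and 119, 186 and 137 in the adult libraries. Its log2 fold change of 0.58 ± 0.20 (adjusted p = 0.0246) no longer passed without adult replicate 2 (0.38, adjusted p = 0.108) or without fetal replicate 1 (0.60, adjusted p = 0.0519). Further genes of the group were Avpr1a, Emb, Gpr146, Igsf9, Lyve1, Psca and Ptpru.

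Among the 12 metabolic enzyme and mitochondrial genes, all with both means at least 50, 9 were higher and 0 lower in adult cells than in fetal ones (34.5% and 34.6% of all genes with both means at least 50). Xdh, the xanthine oxidoreductase that makes uric acid, had 71, 70.2 and 70.0 normalised counts in the fetal, 45.3, 45.2 and 49.9 in the neonatal and 3908, 2412 and 2042 in the adult libraries. Its fetal and neonatal levels were thus near the rule's threshold, and the adult level stood far above both, with a log2 fold change of 5.30 ± 0.25 (adjusted p = 2.26e-07). Ucp2, an uncoupling protein family carrier of the inner mitochondrial membrane, was expressed at a high level at all ages. It had 3598, 3481 and 3189 in the fetal, 1757, 1751 and 1642 in the neonatal and 4509, 4945 and 5422 in the adult libraries. Its adult versus fetal log2 fold change of 0.53 ± 0.08 passed the test (adjusted p = 0.00025). Cyp26b1, which degrades retinoic acid, had 81.9, 76.2 and 263 in the fetal, 37.0, 40.6 and 39.0 in the neonatal and 342, 306 and 161 in the adult libraries. The log2 fold change of 0.95 ± 0.47 for Cyp26b1 did not pass the test (adjusted p = 0.101), and without fetal replicate 3 it was 1.77 (adjusted p = 0.000276). The others were Ass1 of arginine synthesis, the carbonic anhydrase Car2, the glycogen phosphorylase Pygl, the inositol synthase Isyna1, and Dnph1, Gcnt1, Mtfp1, Nqo2 and Slc25a27.

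The 8 transporter and lipid transfer genes, with those of metal handling, included carriers of cholesterol, inositol and lactate. Heph, a copper-containing ferroxidase that works with the iron exporter, had 217, 270 and 291 normalised counts in the fetal, 64.7, 60.1 and 57.5 in the neonatal and 559, 769 and 959 in the adult libraries. All 3 ages were separate, and Heph was higher in adult cells than in fetal ones by 1.55 ± 0.19 (log2, adjusted p = 5.51e-05). Serinc2, a membrane protein of the serine incorporator family, had 505, 498 and 901 in the fetal, 60.1, 66.3 and 65.1 in the neonatal and 279, 210 and 225 in the adult libraries. It was lower in adult cells than in fetal ones by 1.42 ± 0.23 (log2, adjusted p = 0.00043). Slc16a3 encodes the carrier through which glycolytic cells export lactate. It had 1033, 1109 and 1103 in the fetal, 402, 450 and 445 in the neonatal and 1073, 1075 and 907 in the adult libraries. Fetal and adult libraries overlapped, and the log2 fold change of -0.09 ± 0.09 did not pass the test (adjusted p = 0.379). The others were the efflux pumps Abcb1b and Abcg1, the metal reductase Steap1, the inositol carrier Slc5a3 and the lipid transfer protein Stard10. In the group, 3 of 8 were higher (near the background share) and 1 lower in adult cells than in fetal ones.

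The 10 genes of signalling feedback and kinases included Btg2, an antiproliferative early response gene that is also induced by p53. Btg2 had 1929, 2154 and 2157 normalised counts in the fetal, 580, 586 and 616 in the neonatal and 6407, 3116 and 2918 in the adult libraries. Adult replicate 1 was the highest, all adult libraries lay above the fetal ones, and the log2 fold change of 1.00 ± 0.27 passed the test (adjusted p = 0.00849). Dusp5, a phosphatase that switches off nuclear ERK, had 143, 167 and 291 in the fetal, 80.4, 74.1 and 68.3 in the neonatal and 241, 209 and 156 in the adult libraries, and its adult versus fetal log2 fold change was 0.01 ± 0.27 (adjusted p = 0.968). The other genes were Dusp2, Noct, Nuak2, Phlda1, Prr5l, Rps6ka1, Sh3kbp1 and Tnfaip8. Of the 9 with both means at least 50, 3 were higher and 0 lower in adult cells than in fetal ones.

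Of the 4 transcription factor genes, 2 were lower and 1 higher in adult cells than in fetal ones. Tbx4, a T-box factor of hindlimb and lung mesenchyme, had 667, 652 and 900 normalised counts in the fetal, 12.9, 11.7 and 13 in the neonatal and 85.1, 53.7 and 34.3 in the adult libraries. All 3 fetal libraries were high, and the fetal level was 58.9 times the neonatal one. The sum of the epithelial and lung markers was also higher in all 3 fetal libraries than in any neonatal or adult library, but not every marker was. In fetal replicates 1 and 2 most of that sum came from Krt8, Krt18 and Krt19. Cldn7 and Elf3 had 1 count each in those libraries, against 2 to 3 and 0 to 5 in the adult ones. The part of such cells in the level of Tbx4 was not tested. Tbx4, on chromosome 10 from 73333119 to 73362783 (rn6, plus strand), was lower in adult cells than in fetal ones by 3.68 ± 0.27 on the log2 scale (adjusted p = 2.03e-06). Prrx2, a homeobox factor of limb and craniofacial mesenchyme, had 379, 323 and 796 in the fetal, 162, 166 and 161 in the neonatal and 295, 236 and 251 in the adult libraries. It was lower in adult cells than in fetal ones by 0.94 ± 0.30 (log2, adjusted p = 0.0207), and the test was not passed without adult replicate 2 (-0.87, adjusted p = 0.0665) or adult replicate 3 (-0.91, adjusted p = 0.0583). Fetal replicate 3 was the highest library for Prrx2, and fetal replicates 1 and 2 were much nearer the adult libraries. The others were Bnc2, a zinc finger factor of mesenchymal cells, and the bZIP factor Maf.

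The 9 genes of the cytoskeleton and membrane traffic held the gene with the largest ratio, Eps8l2, an actin-binding protein related to the receptor substrate Eps8. Eps8l2 had 21.8, 14.2 and 411 normalised counts in the fetal, 0.924, 0.780 and 0 in the neonatal and 12.9, 18.3 and 14 in the adult libraries. Its 2 reads over the neonatal libraries against 537 in the others gave a ratio of 149 after scaling (95% exact interval 41.0 to 1231, counting error only). Nearly all of its fetal reads came from replicate 3. The adult versus fetal log2 fold change was -3.29 ± 1.23 with that library and -0.24 ± 0.39 without it, and is not tested because Eps8l2 reached the minimum mean through the fetal libraries alone.

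Lsp1 and Gmfg, best known as actin regulators of leukocytes, were among the highest genes per exon length. Lsp1 had 1738, 1663 and 4074 normalised counts in the fetal, 813, 780 and 806 in the neonatal and 3348, 4112 and 4677 in the adult libraries. Its log2 fold change of 0.70 ± 0.31 did not pass the test over all libraries (adjusted p = 0.0746) and did without fetal replicate 3 (1.25, adjusted p = 8.33e-06). Gmfg had 493, 447 and 469 in the fetal, 305, 291 and 285 in the neonatal and 1694, 1988 and 2187 in the adult libraries, which is 53 ± 2.73, 33.3 ± 1.12 and 220 ± 27.3 counts per kilobase per 1000000 counts (mean ± SD, n = 3 libraries per age). It was higher in adult cells than in fetal ones by 2.06 ± 0.10 (log2, adjusted p = 1.45e-07). Beside these values, the macrophage markers summed to 15.4 to 73.6 CPM in fetal, 169 to 186 in neonatal and 4358 to 6083 in adult libraries, and their part in the level of Gmfg was not tested. The other genes of the group were Anxa3, Cytip, Mybph, Pdlim4, Rab15 and Triobp, and of the 7 with both means at least 50, 2 were higher and 2 lower in adult cells than in fetal ones.

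The remaining 15 genes have other or unknown roles, and of the 12 with both means at least 50, 5 were higher and 2 lower in adult cells than in fetal ones. Tmem176a, a membrane channel-like protein known from dendritic cells, had 192, 251 and 172 normalised counts in the fetal, 123, 79.6 and 94.4 in the neonatal and 2184, 1667 and 1825 in the adult libraries, an adult versus fetal log2 fold change of 3.20 ± 0.19 (adjusted p = 5.08e-07). LOC308990 had 27.3, 27.6 and 28.7 in the fetal, 17.6, 18.7 and 10.8 in the neonatal and 801, 1149 and 1128 in the adult libraries (log2 fold change 5.19 ± 0.19). RGD1308065 had 95.5, 76.9 and 204 in the fetal, 4.62, 7.80 and 8.68 in the neonatal and 20.6, 40.3 and 64.8 in the adult libraries, with a log2 fold change of -1.58 ± 0.46. The minimum mean was reached through the adult libraries alone by LOC308990 and through the fetal libraries alone by RGD1308065, so both changes are descriptions. Rps2, a protein of the small ribosomal subunit, had low counts throughout, 53.8 to 75.5 in fetal libraries, 36.7 to 38.0 in neonatal libraries and 57.4 to 99.3 in adult libraries. Near-identical copies of ribosomal protein genes can split or lose reads in such counting, so the Rps2 values are uncertain. The others were Ccdc69, Creg1, Enpp5, Eva1a, Fam43a, Gpbp1l1, Lhfpl2, RGD1305587, RGD1310110, Tmem178a and Fam111a, described above.

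Of the 77 genes with both means at least 50, 32 were higher and 9 were lower in adult cells than in fetal ones, and 36 did not pass the test. The higher calls were 41.6% of these genes, against 34.5% of all tested genes with such means, and the lower calls 11.7% against 34.6%. The median log2 fold change of the 77 was 0.50. Over all 91 genes, which include those that had to differ to reach the minimum mean, 38 were higher (41.8% against 34.9% of all 11337 genes tested), 13 were lower (14.3% against 35.5%) and 40 did not pass the test. The share called either way was 56.0%, against 70.5% of all genes tested. The adult and fetal libraries did not overlap for 51 of the 91 genes (56.0%, against 71.7%), with adult above fetal for 39 and below for 12. By means, 15 genes were at least 4 times higher in adult cells than in fetal ones, 5 were at least 4 times higher in fetal cells, and 29 were within 1.4 times of each other. Since the rule asks for both ages to exceed the neonatal one, these shares describe the chosen genes and are not read as particular to them.

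**Figure D4:**
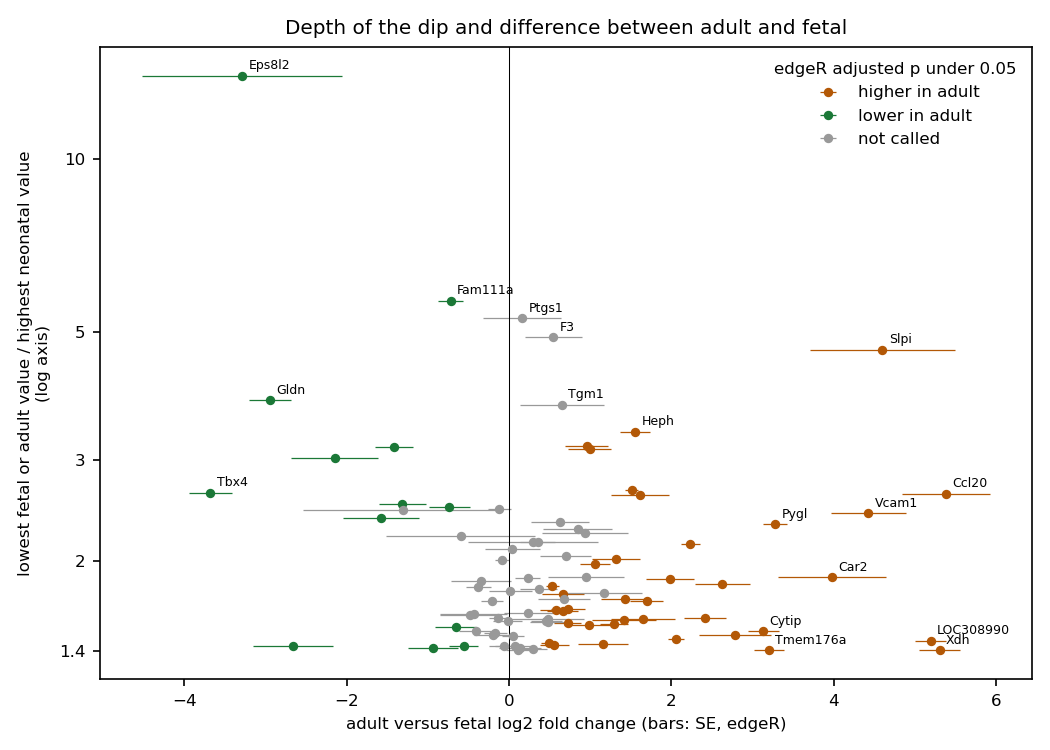
Each of 90 of the 91 genes by its adult versus fetal log2 fold change (x axis, bars are SE from edgeR) and by the ratio of its lowest fetal or adult value to its highest neonatal value (y axis, log scale), coloured by whether its adjusted p was under 0.05, the genes given without a test in the text included. Ptgs1, with a fold change near 0, has a ratio above 5, while Xdh and LOC308990 combine fold changes above 5 with ratios near the threshold of 1.4.

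Fetal replicate 3 and adult replicate 1 carried much of the spread. Fetal replicate 3 was at least 1.4 times both other fetal libraries for 39 of the 91 genes (42.9%), against 10.3% of the 9964 eligible genes. It was at most 1/1.4 of both for 7 genes (7.69%, against 11.4%). Adult replicate 1 was at least 1.4 times both other adult libraries for 26 genes (28.6%, against 5.46%). The highest of the 9 values lay in adult replicate 1 for 39 genes and in fetal replicate 3 for 29, and the shares over all eligible genes were not counted. Between libraries of an age, the median coefficient of variation was 26.0% for fetal, 8.14% for neonatal and 21.2% for adult cells, against 11.7%, 4.2% and 8.81% over the eligible genes. In adult replicate 1 the 6 mesothelial and epicardial markers summed to 495 CPM, against 303 and 209 in the other adult libraries, mostly through Aldh1a2. Without Aldh1a2 the sums were 57.9, 48.8 and 40.7 CPM, 2 of the 6 markers were at least 1.4 times both other adult libraries, and the part of these cells was not tested. Without fetal replicate 3 the rule was still met by 87 of the 91 genes, and 17 further genes met it. In the comparison of adult with fetal cells without that library, 42 of the 77 genes were higher and 9 lower in adult cells. Among all 11519 genes tested in that fit, with no minimum mean, the shares were 37.3% and 37.5%. The 77 were set with fetal replicate 3 included. Over fetal replicates 1 and 2 some had a mean under 50, such as Tgm1 (38.6), Ass1 (33.3), Car2 (37.4) and Mybph (24.4). The fetal mean of such genes is under the minimum in this fit, so these counts are descriptions.

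**Figure D5:**
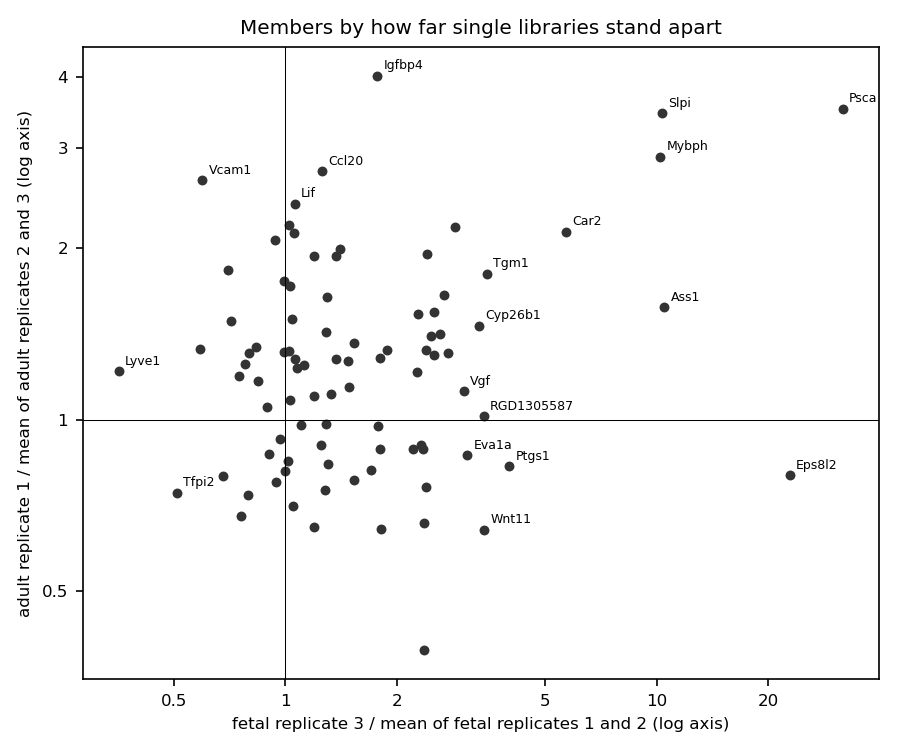
Each of 90 of the 91 genes by the value in fetal replicate 3 over the mean of fetal replicates 1 and 2 (x axis) and by the value in adult replicate 1 over the mean of adult replicates 2 and 3 (y axis), both on log axes, with lines at 1. Psca and Eps8l2 lie farthest to the right and Igfbp4 highest, while Vcam1 is high in adult replicate 1 and low in fetal replicate 3.

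Of 33 lists of genes by pathway, 11 held at least 1 dip gene, and the NF-kB and inflammation list held the most, with Ccl20, Lif and Vcam1. Of the 21 tested genes of that list, 19 were higher and 1 was lower in adult cells than in fetal ones (34.9% and 35.5% of all genes tested). The list's median log2 fold change was 3.62, against -0.01 over all genes. The lowest of the 3 means was the neonatal one for 8 of the 21 (38.1%), against 23.4% of all genes tested: besides those 3, Cxcl10, Il1a, Il6, Nfkbiz and Ptgs2. Ccl20, Lif and Vcam1 were chosen for a low neonatal level, so the rule set part of this share. Between neonatal and fetal cells, Il6, Il1a, Nfkbiz and Cxcl10 did not pass edgeR's test (adjusted p = 0.854, 0.767, 0.445 and 0.126), while Ptgs2 did (adjusted p = 0.00367). Icam1, the ligand of leukocyte integrins that is often induced with Vcam1, had means of 1624, 3667 and 13125 normalised counts in fetal, neonatal and adult cells. The chemokine gene Ccl2 had means of 363, 938 and 25781. In neither gene was the neonatal mean the lowest. Between neonatal and fetal cells 7 of the 21 were higher and 3 lower (18.3% and 18% of all genes tested), and 20 of the 21 were higher in adult than in neonatal cells (31.6% of all).

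A looser dip was counted from the same model, a gene lower in neonatal than in fetal cells and also higher in adult than in neonatal cells, both at an adjusted p under 0.05. It was met by 455 of 11337 genes (4.01%), and by 83 of the 91 genes, whose choice used these contrasts. Among the pathway lists the share ran from 0% to 38.5%, and the highest was in the list of hypoxia and glycolysis genes, with 10 of 26 tested genes. These were Slc16a3 from the 91, the glucose carrier gene Slc2a1, Hk2, Pfkl, Aldoc, Gapdh, Pgam1, Eno1, Pkm and Ldha. Between neonatal and fetal cells the changes of the others were smaller than that of Slc16a3. They act at steps from glucose entry to lactate, but other enzymes of glycolysis did not meet this looser dip. Slc2a1 had means of 1742, 1103 and 2501 normalised counts in fetal, neonatal and adult cells, with log2 fold changes of -0.65 ± 0.10 between neonatal and fetal (adjusted p = 0.0018) and 1.17 ± 0.11 between adult and neonatal cells (adjusted p = 1.33e-05). Hk2, the inducible hexokinase, had means of 1145, 730 and 1096, with log2 fold changes of -0.64 ± 0.13 (adjusted p = 0.00513) and 0.58 ± 0.13 (adjusted p = 0.00349). Ldha, which makes lactate, had means of 1859, 1468 and 2582, with log2 fold changes of -0.33 ± 0.06 (adjusted p = 0.00317) and 0.80 ± 0.06 (adjusted p = 4.44e-06). In all, 15 of the 26 had their lowest mean in neonatal cells, against 23.4% of all genes tested. Other courses were also seen in the list. Hk1, Gpi, Pfkm, Aldoa and Pgk1 did not pass edgeR's test between neonatal and fetal cells (adjusted p = 0.170, 0.685, 0.638, 0.539 and 0.599). Aldoa, with means of 11877, 11305 and 23888 in fetal, neonatal and adult cells, was far above Aldoc (476, 276 and 474). Pfkp was higher in neonatal than in fetal cells by 0.37 on the log2 scale (adjusted p = 0.00134). Car9 fell by 2.06 from fetal to neonatal and by a further 1.68 from neonatal to adult cells on the log2 scale (adjusted p = 0.00715 and 0.0154), and Adm was higher in neonatal than in fetal cells by 1.11 (adjusted p = 0.0293) and higher again in adult cells by 2.83 (adjusted p = 0.000113). Gapdh, Pkm, Eno1, Ldha and Pgam1 have processed copies elsewhere in the genome that can take or remove reads, so their levels are uncertain. Without fetal replicate 3 the count was 9 of 26, and with any 1 neonatal library left out it was 6, against 1.58% to 1.90% of all genes. Hk2, Slc2a1, Pfkl, Eno1, Ldha and Slc16a3 were among those called in each of these fits.

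The next shares were 5 of 23 genes of ribosome biogenesis (Bop1, Dkc1, Fbl, Nop16 and Pes1), 4 of 20 of the unfolded protein response (Creld2, Edem1, Manf and Sdf2l1) and 4 of 21 of oxidative phosphorylation (Cox5a, Cox5b, Ndufb8 and Sdhb). None of these genes is among the 91. The lists were written with earlier results of these data known, and their shares are descriptions beside the 4.01% of all genes. The 91 genes lay on 21 chromosomes, no exon of any overlapped another gene's exons in the annotation, and 9 neighbouring pairs lay within 1 Mb of each other. The closest pairs were Btg2 and Mybph, 117353 bases apart on chromosome 13, and Mtfp1 and Lif, 162407 bases apart on chromosome 14. Mybph and Btg2 were both highest in a single library of an age, but not in the same one: fetal replicate 3 led for Mybph, with 249.5 normalised counts against at most 116 elsewhere, and adult replicate 1 for Btg2.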

How the data were processed

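RNA of 9 cultures was sequenced, 3 libraries per age. Per the submitters' processing notes, FastQC, Trimmomatic 0.39, STAR 2.5.2b, featureCounts (Subread 1.6.3) and DESeq2 were used. The authors deposited raw counts per gene for 17337 genes on rn6, with the command and exon lengths per the file headers. The command sets no strand or multi-mapping option, so reads of overlapping or antisense genes cannot be told apart and reads with several hits were left out by default. The deposited normalized signal values cover 12786 genes, and within rounding each is the raw count over a size factor of its library. Libraries held 13392825 to 22850491 counts, and 3163 genes had none.

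The dip rule was applied to the normalized signal values, with the lowest fetal and adult values required to be above 0. Differences between ages were tested on the deposited counts with edgeR 4.0.16 in R 4.3.3 (filterByExpr, TMM, robust glmQLFit and glmQLFTest, all 9 libraries in 1 fit), which kept 11337 genes. P-values were two-sided and adjusted by Benjamini-Hochberg over these genes, with a threshold of 0.05. Standard errors are the log2 fold change over the root of F. The script was tested on simulated data. Levels per kilobase used the deposited exon lengths and TMM. Chi-square comparisons found no library deposited more than once. Ratios of genes with few neonatal reads have exact 95% intervals, which cover counting error only. Promoters are from RefSeq's table for GRCr8, matched by symbol.

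Named by rule were the 12 genes with the largest ratio, the 8 with the largest level per exon length over fetal and adult libraries, the 5 most changed in each direction between adult and fetal cells among those called without overlap, those in a gene list, and the genes nearest the threshold on either side. The genes, lists and tests were chosen with earlier results of these data known. Alternatives were DESeq2 1.42.0, other scalings, no filter, adult and fetal libraries alone, a replicate block, other rule thresholds and each library left out. The alternatives for the glycolysis list were chosen after seeing the data. The values of 1 of the 91 genes are not reported here, and the figures leave it out, while the counts include it. Members under a mean of 50 in 1 age got no adult versus fetal test in the text, which was decided after seeing the data.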

Additional observations from a re-analysis of the deposited data

How the results depend on the processing

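The rule's cut-offs set how many genes were taken: 206 at a ratio of 1.2, 35 at a ratio of 2 and 55 at a minimum mean of 200, against 91, with 116 at a minimum mean of 10. Scaling by TMM gave 89 genes, all among the 91, and scaling by library size alone gave 131, which held all 91. Leaving out 1 library gave 97 to 118 genes. Between adult and fetal cells, 7124 to 8616 genes passed the test under the alternatives, against 7987. Leaving out 1 library gave 7509 to 8616 genes, with 35 to 50 of the 91 higher and 9 to 14 lower in adult cells. All counts and shares of adult versus fetal calls over the 91 in this section are descriptions. They include the 9 genes that reached the minimum mean through the adult libraries alone and the 5 through the fetal ones. Scaling by library size alone moved the median log2 fold change of all genes from -0.01 to -0.12 between adult and fetal cells. It moved the higher share of all calls from 49.5% to 43.4%, and that of the dip genes from 74.5% to 70.6%. Under it the looser dip was met by 793 genes (6.99%), against 455 (4.01%). The glycolysis and hypoxia count was 6 to 9 with 1 library left out, against 10, and 6 with any neonatal library left out, where 1.58% to 1.90% of all genes met it.

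The replicate numbers are shared between ages, but same-numbered libraries did not deviate together (r across genes from -0.08 to 0.07 over 9 pairs of libraries), so the numbers were not taken to pair them. With the replicate block 7801 genes passed, with 39 of the 91 higher and 13 lower, and 9 glycolysis and hypoxia genes. Under the block Lsp1 passed the test (0.78, adjusted p = 0.0291).

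Genes with adult versus fetal log2 fold changes near 0 changed sign without passing the test, and the cause was not tested. Scaling by library size gave Ptgs1 -0.0021 and Dusp5 -0.12, and no filter gave Dusp5 -0.0062. Without fetal replicate 1, Ptgs1 was -0.17, Dusp5 -0.19 and Stc2 0.028, and without fetal replicate 2, Ptgs1 was -0.16 and Dusp5 -0.11. Without adult replicate 1, Dusp5 was -0.13 and Rps2 -0.17, and Lif, at -0.31, passed the test. Without adult replicate 2, Dusp5 was -0.0094 and Stc2 0.0095, and without adult replicate 3, Stc2 was 0.0702. The ranges with 1 library left out were -0.19 to 0.3739 for Dusp5, -0.31 to 0.4551 for Lif, -0.277 to 0.0702 for Stc2, -0.17 to 0.2759 for Rps2 and -0.17 to 1.16 for Ptgs1. Genes with a few neonatal reads, such as Slpi, Eps8l2 and Ccl20, have ratios limited by depth, and 3 libraries per age limit every test.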
